A study of Ovis aries with 6 samples.

Results

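The aminoacyl-tRNA synthetases are the enzymes that charge each tRNA with its amino acid. Their genes were taken from the gene count table by symbol, as a letter followed by ARS or ARS2 together with EPRS, FARSA and FARSB, and the scaffold proteins AIMP1, AIMP2 and EEF1E1 were added, which gave 39 of the 23144 genes listed. They comprised 20 genes for cytosolic enzymes, 16 for mitochondrial enzymes, whose symbols end in 2, and the 3 scaffold proteins. The libraries came from the longissimus muscle of the back, with 1 library per animal. There were 3 sheep of the breed Qianhua Mutton Merino (QHMM) and 3 of the breed Small Tail Han (STH). All were females aged 1 year from 1 breeding company, reared side by side in natural light with feed and water freely available. For both breeds the paper reports a fast ahead of the live weight measurement that preceded slaughter. The part of this fast in the values below was not tested. The study asked which muscle transcripts separate QHMM, a breed made for mutton and wool, from the local breed STH, and poly(A) RNA was read on an Ion Proton instrument. The p-values reflect the spread between animals within these small groups. Fewer cells of a type and less RNA per cell cannot be told apart in whole muscle.

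The counts on genes summed to between 10982191 and 14334544 per library, and all 39 synthetase and scaffold genes passed the filter for low counts that left 12506 genes for testing. The tested skeletal muscle markers, 7 of them, gave 0 calls and 0 unadjusted p-values below 0.05 by edgeR's test and 0 calls by DESeq2. The gene table gives a strand but no chromosome positions, and none are printed here. The mitochondrial cysteine enzyme CARS2 has no entry under its own symbol, so it is not among the members. A gene row annotated as similar to CARS2 stood at 262 ± 21.5 normalized counts in QHMM against 281 ± 136 in STH (SD, n = 3; log2 fold change 0.10).

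Each synthetase recognizes 1 amino acid and its tRNAs, first activates the amino acid with ATP and then joins it to the tRNA, so that the ribosome receives the building block that matches the codon. The enzymes fall into class I and class II, which differ in the fold of their catalytic part. Several cytosolic enzymes are held together with AIMP1, AIMP2 and EEF1E1 in the multi-synthetase complex, while a separate set of nuclear genes supplies the mitochondrion, where the subunits of the respiratory chain that mitochondrial DNA encodes are made. The genes KARS and GARS serve both compartments, EPRS joins the glutamate and the proline enzyme in 1 protein, and FARSA and FARSB are the subunits of the cytosolic phenylalanine enzyme.

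Levels per gene length were compared in RPKM as deposited, which divides the reads of a gene by its length and by the total of its library. Among the cytosolic enzymes, KARS, the lysine enzyme, had the highest level. Its RPKM was 202, 182 and 185 in the 3 QHMM libraries and 223, 246 and 190.3 in the 3 STH libraries, and it made up between 28.6% and 32.2% of the RPKM summed over the 20 cytosolic genes. SARS, the serine enzyme, followed at 73.1, AARS, the alanine enzyme, at 63.3 and QARS, the glutamine enzyme, at 58.6 (means of all 6 libraries). SARS lay above QARS in every library of both breeds, while AARS and QARS overlapped. At the other end, HARS for histidine averaged 8.33, YARS for tyrosine 4.78 and LARS for leucine 0.571. LARS was the lowest of all 39 genes, with an RPKM between 0.417 and 0.939 and a gene count between 21 and 40 per library, so its breed difference rests on few reads.

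The mitochondrial enzymes stood lower, with a median RPKM of 4.16 over the 16 genes, compared with 18.3 over the cytosolic genes and 5.18 over all genes tested. IARS2, the isoleucine enzyme, had the highest mean at 18.2, followed by FARS2 for phenylalanine at 16.7 and TARS2 for threonine at 12.3. The libraries of IARS2 and FARS2 overlapped. RARS2 for arginine at 2.33 and PARS2 for proline at 1.51 were among the lowest. Of the scaffold proteins, AIMP2 averaged an RPKM of 48.3, EEF1E1 9.50 and AIMP1 5.36.

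**Figure D1:**
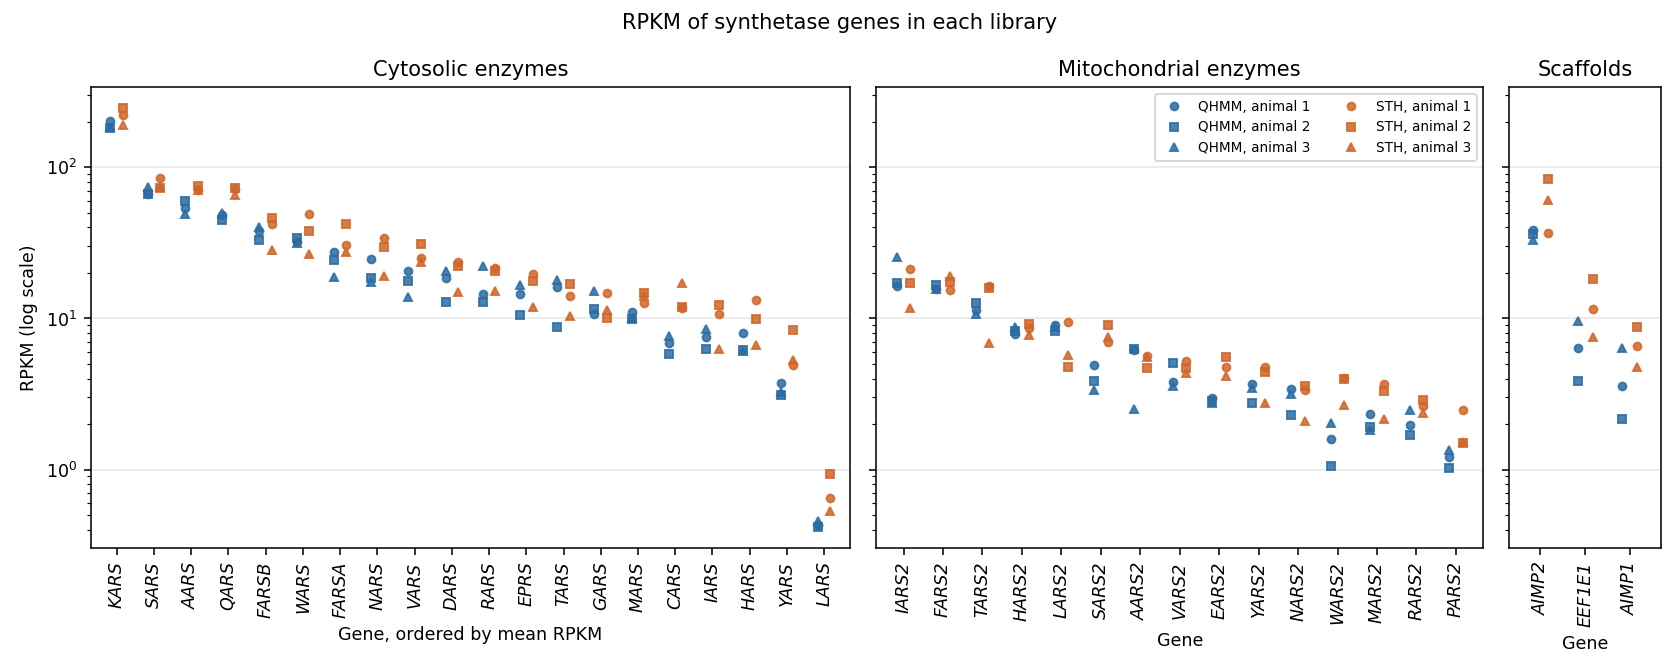
RPKM (log scale) of 38 synthetase and scaffold genes in the 3 QHMM libraries (blue) and the 3 STH libraries (orange), ordered by mean RPKM within the cytosolic enzymes, the mitochondrial enzymes and the scaffold proteins. KARS averaged 205 and LARS 0.571, and most mitochondrial genes lay below most cytosolic ones.

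The comparison of STH vs. QHMM found no synthetase or scaffold gene that passed the thresholds. By edgeR's quasi-likelihood test with Benjamini-Hochberg adjustment (FDR below 0.05 and more than a 1.5-fold change), 0 of the 39 genes were called, against 3.45% of all genes tested (1.62% higher and 1.83% lower in STH). DESeq2 also called 0 members, against 7.78% of all genes (3.34% higher in STH). At an unadjusted p below 0.05 there were 6 genes, WARS2, CARS, SARS2, YARS, EARS2 and EEF1E1, all higher in STH, which is 15.4% of the members against 19.2% of all genes in either direction. Of all genes, 9.43% were higher and 9.72% lower in STH at that level. The smallest adjusted p of any member was 0.0908, for WARS2.

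The estimates leaned towards STH in the cytosolic set. A positive log2 fold change was found in 17 of the 20 cytosolic genes, 9 of the 16 mitochondrial genes and 3 of the 3 scaffold proteins, compared with 51.8% of all genes tested. The median log2 fold change was 0.28 for cytosolic enzymes, 0.04 for mitochondrial enzymes and 0.67 for scaffold proteins, beside 0.02 for all genes. These medians describe the lists and carry no test. Without STH replicate 2, the cytosolic median was 0.16 and that of the scaffold proteins 0.44. The scaffold median reached 1.05 when QHMM replicate 3 was left out.

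In 10 of the 39 genes, 25.6%, the lowest STH library lay above the highest QHMM library in normalized counts, against 13.0% of all genes, and in 1 gene, LARS2, the STH libraries all lay below, against 11.7%. Together these were 28.2% of the members and 24.7% of all genes. The genes that were higher in this sense were CARS, YARS, LARS, VARS and QARS of the cytosol and WARS2, SARS2, EARS2, PARS2 and MARS2 of the mitochondrion. With 3 animals per breed an exact permutation test of a single gene cannot go below p = 0.1. In RPKM, which carries no correction for library composition, 11 genes lay higher and 0 lower, with AARS and MARS in place of MARS2 and with LARS2 overlapping, and over all genes 15.4% lay higher and 7.82% lower.

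**Figure D2:**
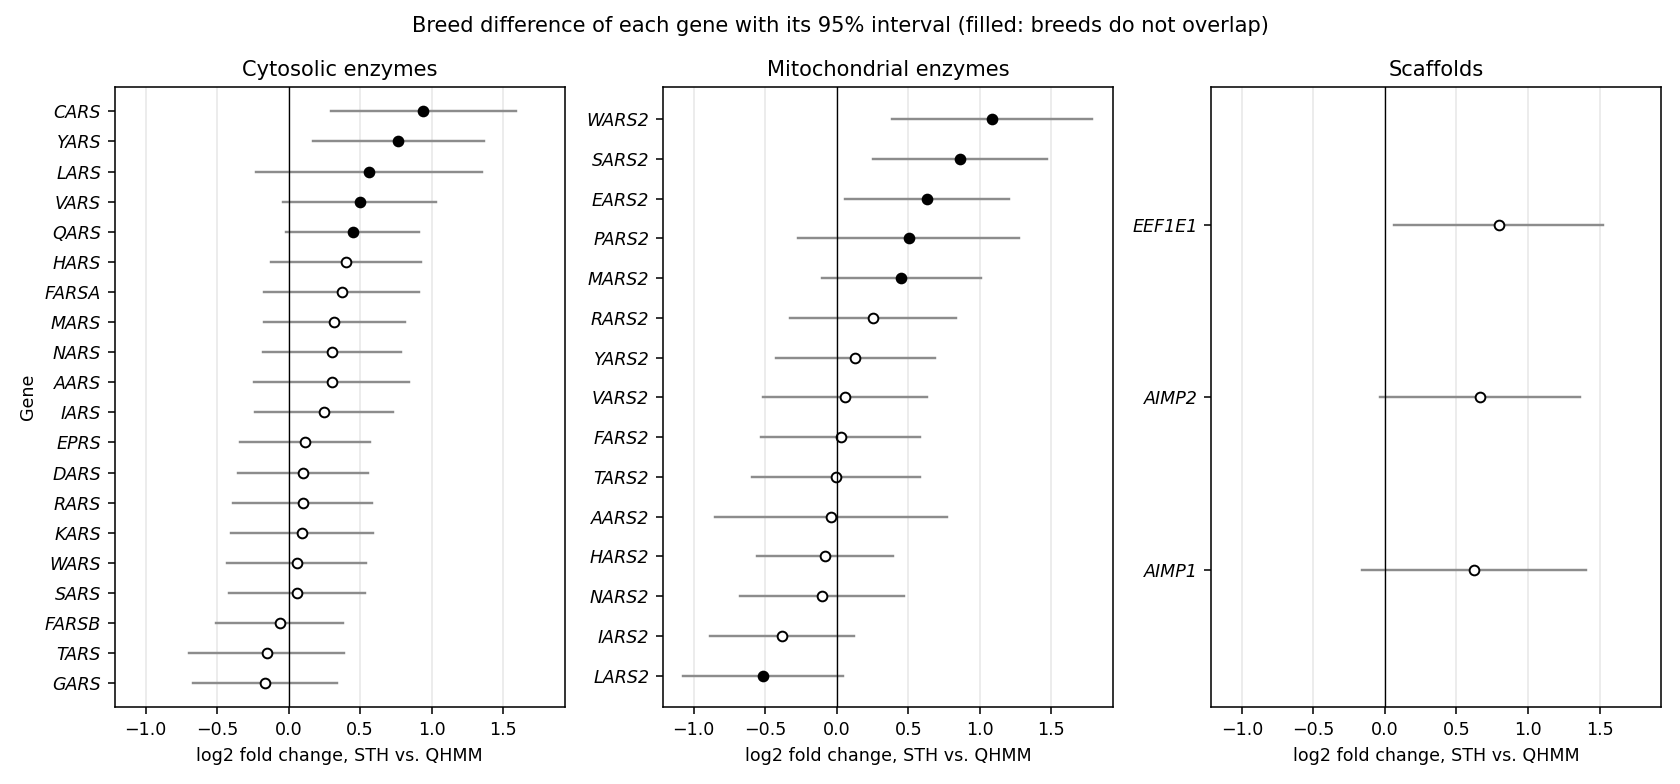
Log2 fold change of STH vs. QHMM (x axis) with its 95% interval from edgeR for 38 of the 39 genes (y axis), in panels for cytosolic enzymes, mitochondrial enzymes and scaffold proteins; filled points mark genes whose libraries did not overlap between breeds. WARS2 was highest at 1.09 and LARS2 lowest at -0.51, and the intervals of 32 of the plotted genes crossed 0.

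The enzymes of the multi-synthetase complex were EPRS, IARS, LARS, MARS, QARS, RARS, KARS and DARS. All 8 had a positive log2 fold change, with a median of 0.18. Of the 12 cytosolic enzymes outside the complex 9 did so, with a median of 0.30, and of all genes tested 51.8%. Without STH replicate 2 the medians were 0.07 in the complex and 0.23 outside it. The estimate of RARS fell as low as -0.035 when 1 library was left out. QARS had 1510, 1667 and 1530 normalized counts in QHMM against 1897, 2092 and 2431 in STH. The breeds did not overlap, and QARS had a log2 fold change of 0.45 (SE 0.21, adjusted p = 0.280). LARS had 21.6, 24.8 and 22.5 in QHMM against 27.5, 43.1 and 31.6 in STH, a log2 fold change of 0.56 with a 95% interval from -0.23 to 1.36. KARS, the most abundant enzyme, had 5275, 5652 and 4754 normalized counts in QHMM against 4939, 5913 and 5906 in STH. The breeds overlapped for KARS, and the 95% interval of its log2 fold change ran from -0.40 to 0.59. The remaining 5 enzymes of the complex had log2 fold changes between 0.10 and 0.32, and none had breeds that stood apart in normalized counts.

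The 3 scaffold proteins had log2 fold changes between 0.62 and 0.79, and the breeds overlapped in each of them. AIMP2, which holds the complex together, had 449, 504 and 382 normalized counts in QHMM against 367, 902 and 852 in STH. STH replicate 1 lay below all 3 QHMM libraries and the other two STH libraries far above them, and the log2 fold change of 0.67 (SE 0.32) had an adjusted p of 0.281. AIMP2 passed both thresholds when STH replicate 1 was left out, with a log2 fold change of 0.96, and in no other setting tried. EEF1E1, also known as AIMP3, had 142, 102 and 209.9 in QHMM against 218, 372 and 199 in STH, a log2 fold change of 0.79 (SE 0.33, adjusted p = 0.219). AIMP1, the precursor of the cytokine EMAP II, had 49.5, 35.4 and 87.0 in QHMM against 76.6, 111 and 78.0 in STH. For both EEF1E1 and AIMP1, QHMM replicate 3 reached into the STH values. All 3 scaffold proteins were highest in STH replicate 2. The table also lists 5 rows annotated as related to AIMP1, and with these added the sums were 128, 90.9 and 156 in QHMM against 164, 234 and 157 in STH.

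Among the cytosolic enzymes outside the complex, CARS, the cysteine enzyme, had the largest difference. Its normalized counts were 153, 153 and 167 in QHMM against 219.8, 242 and 449.7 in STH. The QHMM libraries lay close together and every STH library lay above them, with STH replicate 3 far above the other two. CARS had a log2 fold change of 0.94 (SE 0.29, 95% interval 0.30 to 1.59, adjusted p = 0.110), and the estimate stayed at or above 0.55 when single libraries were left out.

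YARS had 119, 117 and 102 in QHMM against 133, 244 and 200 in STH, a log2 fold change of 0.77 (SE 0.27, adjusted p = 0.153). The breeds did not overlap, although STH replicate 1 came close to QHMM. A second row is annotated as a YARS-like tyrosine ligase, so that reads of YARS may be split between the rows. The sum of both rows was 221, 243 and 199 in QHMM against 278, 455 and 336 in STH, again without overlap, and its log2 ratio of means was 0.69.

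VARS, the valine enzyme, had 976, 983 and 639 normalized counts in QHMM against 999.7, 1347 and 1319 in STH, giving 0.50 (log2 fold change, SE 0.24, adjusted p = 0.296). SARS, the second most abundant cytosolic enzyme, had 1603, 1917 and 1753 in QHMM against 1733, 1633 and 2119 in STH, and its breeds overlapped. AARS had 2403, 3153 and 2159 in QHMM against 2682, 3078 and 3752 in STH (log2 fold change 0.30). HARS had 204, 188 and 154 in QHMM against 287, 232 and 202 in STH, where the lowest STH library fell just under the highest QHMM library. Only GARS, TARS and FARSB had negative estimates among the 20 cytosolic genes, between -0.17 and -0.06. The subunits of the phenylalanine enzyme had estimates of opposite sign, 0.37 for FARSA and -0.06 for FARSB, and both had intervals that include 0.

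The mitochondrial enzymes were split more evenly. WARS2, the tryptophan enzyme, gave the largest estimate of all 39 genes. Its normalized counts were 27.0, 21.3 and 33.8 in QHMM against 58.3, 62.5 and 54.2 in STH, so that the lowest STH library was well above the highest QHMM library and the spread within STH was small. WARS2 had a log2 fold change of 1.09 (SE 0.32, 95% interval 0.38 to 1.79, adjusted p = 0.0908), which stayed between 0.94 and 1.26 when single libraries were left out. The counts behind it were low, and it did not pass the FDR threshold under any setting tried.

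SARS2, the mitochondrial serine enzyme, had 98.2, 90.9 and 65.5 in QHMM against 117, 167 and 179.7 in STH. SARS2 had a log2 fold change of 0.86 (SE 0.28, adjusted p = 0.117) with no overlap between breeds. EARS2, which charges glutamate and also supplies the route to mitochondrial glutaminyl-tRNA, had 60.3, 68.5 and 55.3 in QHMM against 81.6, 103 and 101 in STH. The log2 fold change was 0.63 (SE 0.26, adjusted p = 0.212). PARS2 had 23.4, 23.6 and 25.6 in QHMM against 40.8, 26.9 and 35.0 in STH, while MARS2, the methionine enzyme, had 85.5, 82.6 and 65.5 in QHMM against 115, 111 and 93.8 in STH. Both lay higher in every STH library, with log2 fold changes of 0.50 and 0.45 and adjusted p-values of 0.477 and 0.362.

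In the opposite direction, LARS2, the mitochondrial leucine enzyme, had 318, 345 and 301 normalized counts in QHMM against 280.5, 154 and 239.6 in STH. The breeds did not overlap, STH replicate 2 was the lowest, and LARS2 had a log2 fold change of -0.51 (SE 0.25, adjusted p = 0.301). IARS2 had 678, 852 and 1050 in QHMM against 747, 653 and 576 in STH, and STH replicate 1 lay above the lowest QHMM library. The log2 fold change was -0.38 with a 95% interval from -0.89 to 0.12. LARS2 and IARS2, both for branched-chain amino acids, were the members with the most negative estimates, and the third mitochondrial enzyme of this kind, VARS2, had an estimate of 0.06.

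For FARS2 (295, 377 and 291 normalized counts in QHMM, 248, 305 and 428 in STH), TARS2 (368, 485 and 339 in QHMM, 450, 473 and 264 in STH) and RARS2 (59.4, 61.4 and 73.7 in QHMM, 67.4, 79.7 and 84.7 in STH) the breeds overlapped. AARS2, the mitochondrial alanine enzyme, had the widest spread of any member within a breed, with 232, 280 and 93.2 in QHMM against 179, 162 and 249 in STH. No member spread more than 4-fold within a breed. Over the 39 genes, the median ratio of the highest to the lowest library was 1.31 in QHMM against 1.35 in STH, beside 1.49 and 1.58 over all genes tested. By class, 15 of the 17 class I enzymes had a positive log2 fold change with a median of 0.32, and 10 of the 18 class II enzymes with a median of 0.04, where EPRS was left out because it holds both classes. The 2 class I enzymes without a positive estimate were IARS2 and LARS2.

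**Figure D3:**
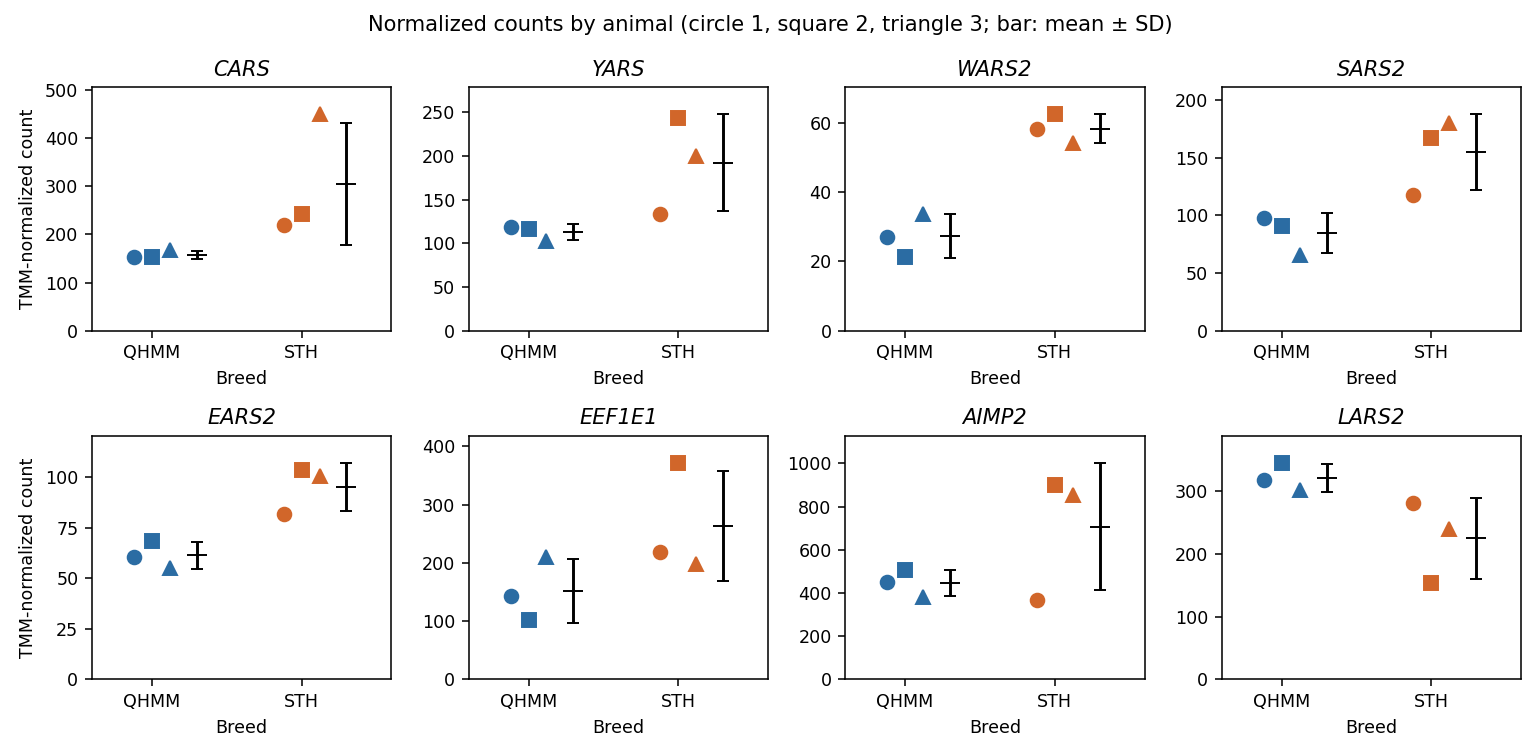
TMM-normalized counts (y axis) of 8 genes in each QHMM library (blue) and each STH library (orange), with the mean and SD of each breed as a bar beside the points. The breeds did not overlap for WARS2, with 21.3 to 33.8 in QHMM against 54.2 to 62.5 in STH, while the STH libraries of AIMP2 spread from 367 to 902.

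Single libraries contributed unequally to these values. STH replicate 2 held the highest normalized count in 14 of the 39 genes, among them 8 of the 20 cytosolic enzymes and all 3 scaffold proteins, and QHMM replicate 3 held the lowest in 14. STH replicate 2 was the library with the fewest counted reads. The RPKM summed over the cytosolic enzymes lay between 569 and 625 in QHMM and between 639 and 800.5 in STH, without overlap. Divided by the TMM factor of each library, which ranged from 0.852 to 1.20, the same sums lay between 590 and 668 in QHMM and between 651 and 749 in STH and overlapped. The RPKM summed over the mitochondrial enzymes lay between 93.5 and 98.2 in QHMM and between 87.9 and 117 in STH.

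Pairs of a mitochondrial and a cytosolic gene for the same amino acid were compared within each library by RPKM, where both genes share the depth of the library. There were 17 such pairs, with EPRS set against both EARS2 and PARS2 and FARS2 against both FARSA and FARSB. In 12 pairs the cytosolic gene was higher in all 6 libraries, with the widest gaps for WARS over WARS2 (15.1-fold as a geometric mean), SARS over SARS2 (13.1-fold) and AARS over AARS2 (12.7-fold). For histidine, threonine and tyrosine the order changed between libraries. For YARS, the reads may be split between the rows as stated above, which would lower the cytosolic value of that pair.

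In the isoleucine and leucine pairs the mitochondrial gene was higher in all 6 libraries. The log2 ratio of IARS2 to IARS was 1.10, 1.46 and 1.59 in QHMM against 0.98, 0.48 and 0.90 in STH. The log2 ratio of LARS2 to LARS was 4.39, 4.31 and 4.26 in QHMM against 3.87, 2.35 and 3.44 in STH. LARS was the lowest member at a mean RPKM of 0.571, and whether its gene model holds all reads of the cytosolic leucine enzyme was not tested, so the size of this ratio is uncertain. Both ratios were lower in every STH library than in any QHMM library, as was that of NARS2 to NARS, the asparagine enzymes, with means of -2.77 in QHMM and -3.19 in STH. In the tryptophan and serine pairs the ratio was higher in every STH library, with means of -4.45 in QHMM and -3.39 in STH for WARS2 to WARS and of -4.11 and -3.30 for SARS2 to SARS. The breeds overlapped in the other 12 pairs, and over all 17 the mean ratio was higher in STH in 8. These ratios are descriptions and were not tested. They reuse the values of the single genes above, and no share over other gene pairs was taken for the 5 pairs without overlap. For single genes in RPKM, 15.4% of all genes lay higher and 7.82% lower in STH without overlap.

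**Figure D4:**
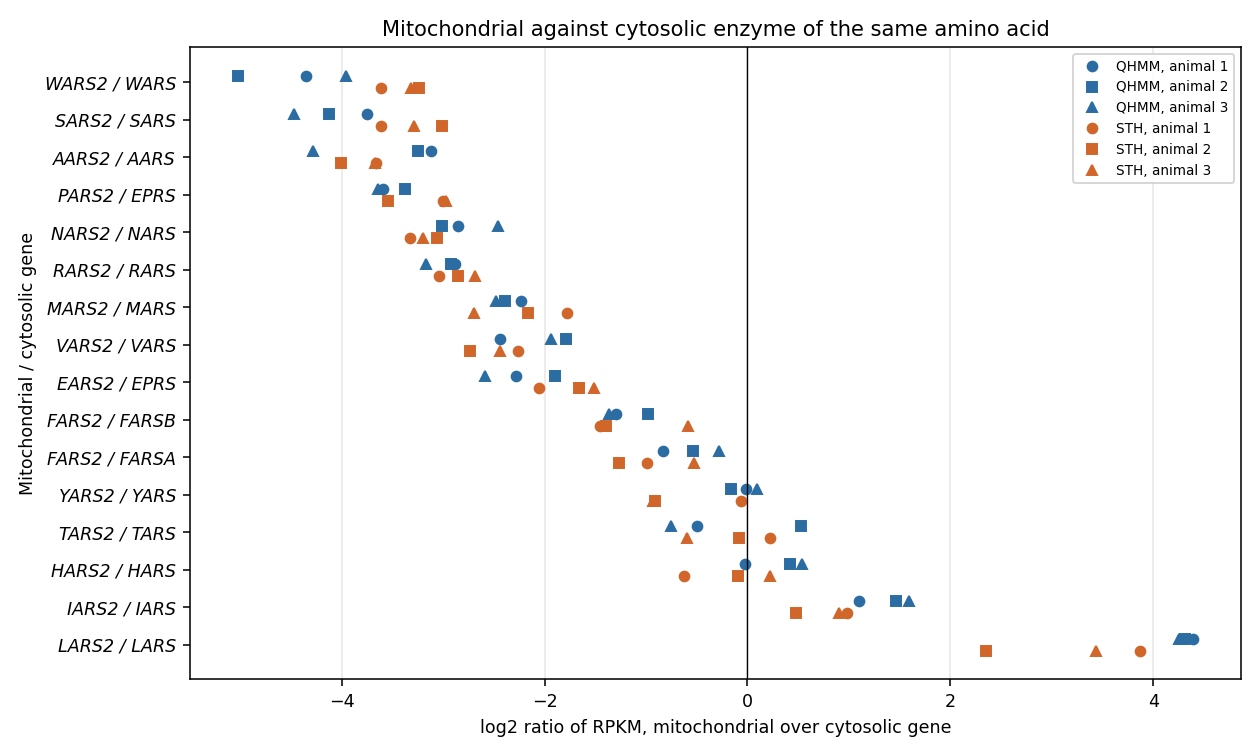
Log2 ratio of the RPKM of the mitochondrial gene to that of the cytosolic gene for the same amino acid (x axis) in each QHMM library (blue) and STH library (orange), with 1 pair per row for 16 of the 17 pairs. Points left of 0 have more of the cytosolic gene; LARS2 and LARS lie farthest right of the plotted pairs, with a mean of 4.32 in QHMM against 3.22 in STH, and this rests on the low LARS level, whose gene model was not checked for missing reads.

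Genes that act before and after the synthetases were counted in lists. For tRNA transcription and maturation, 34 of the 36 genes listed in the table were tested, and 28 of these had a positive log2 fold change, with a median of 0.34 (0.18 without STH replicate 2). At an unadjusted p below 0.05, 9 were higher and 0 lower in STH, beside 9.43% and 9.72% of all genes. In this list 1 gene was called higher and 0 lower, beside 1.62% and 1.83% of all genes. It was RPP38, a protein of RNase P, which trims the front end of precursor tRNA. Its normalized counts were 42.3, 49.6 and 18.4 in QHMM against 68.3, 305 and 141 in STH, giving 2.22 (log2 fold change, SE 0.53, adjusted p = 0.0497). The call was lost under upper-quartile normalization, with robust dispersions, by limma-trend on RPKM and when any single library other than STH replicate 1 was left out, with estimates between 1.49 and 2.58 over the 6 fits that left out 1 library. POLR3D, a subunit of RNA polymerase III, had a log2 fold change of 1.10 with an adjusted p of 0.0756 by edgeR, and was called by DESeq2, with no filter on low counts and without STH replicate 1. MAF1, a repressor of RNA polymerase III, had the highest mean RPKM of this list at 142 and a log2 fold change of 0.28.

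The ATF4 response to amino acid shortage is a set of stress genes that is known to include several synthetases. Of 21 tested genes of this list, 13 had a positive log2 fold change, beside 51.8% of all genes, and the median was 0.08. In it, 1 gene was called higher and 0 lower, beside 1.62% and 1.83% of all genes. At an unadjusted p below 0.05, 4 of the 21 were higher and 1 lower, beside 9.43% and 9.72%. The median was not stable when single libraries were left out. It was 0.57 without QHMM replicate 1 and 0.18 without STH replicate 2. Without QHMM replicate 3 it was 0.017, and without QHMM replicate 2 it was 0.0195. With no filter on low counts, which adds list genes not tested above, it was 0.39. On log2(RPKM + 0.1), which leaves out list genes under the RPKM filter, it was 0.42, beside 0.14 over all genes. The called gene was EIF4EBP1, which holds back cap-dependent translation, with 689.8, 986 and 557 normalized counts in QHMM against 1467, 1814 and 2228 in STH and a 95% interval of the log2 fold change from 0.71 to 1.90 (SE 0.27, adjusted p = 0.0306). EIF4EBP1 stayed called when QHMM replicate 2 or STH replicate 1 was left out and lost the call when any of the other 4 libraries was. SLC3A2, the heavy chain of amino acid exchangers, had the largest estimate of this list at 1.83 (SE 0.51, adjusted p = 0.0787), and its STH libraries spread from 708 to 3968. The estimate was 0.82 without STH replicate 2 and 2.22 without STH replicate 1, and SLC3A2 was called in the latter fit and with no filter on low counts. CEBPB, a transcription factor, was called by DESeq2, by limma-trend on RPKM with either pseudocount and with no filter on low counts, and had an adjusted p of 0.0766 by edgeR, with 547 ± 327 normalized counts in QHMM against 1548 ± 261 in STH (SD, n = 3). ATF4 itself had the highest mean RPKM of the list at 907 and a log2 fold change of 0.33 (SE 0.34). ASNS, the asparagine synthetase that is a common readout of the response, had 15.0 ± 7.36 normalized counts in QHMM against 20.9 ± 8.35 in STH (SD, n = 3). In the other direction, 8 of the 21 tested genes had negative estimates. ATF3 had the most negative at -0.85 (SE 0.95), and its QHMM libraries spread from 125 to 8358. VLDLR, at -0.70 (SE 0.27, adjusted p = 0.197 by edgeR), was the 1 gene lower at an unadjusted p below 0.05. QHMM replicate 3 was the lowest library for ATF3 and for CEBPB, which had 209 normalized counts there.

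Among the partners that edit, convert or modify aminoacyl-tRNA, 0 of 11 tested genes were called and the median log2 fold change was 0.08 (-0.018 without STH replicate 2). MTFMT, which formylates the mitochondrial initiator methionyl-tRNA, had the largest estimate at 0.71 (SE 0.39, adjusted p = 0.360). AARSD1, an editing protein related to AARS, had the highest mean RPKM at 22.7, and its log2 fold change was -0.01. QRSL1 and PET112, subunits of the amidotransferase that makes mitochondrial glutaminyl-tRNA from the product of EARS2, had log2 fold changes of -0.26 and 0.05. TARSL2, a further cytosolic threonine enzyme that falls outside the naming rule, had a mean of 2.41 normalized counts in QHMM against 1.65 in STH and was not tested.

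Of the 6 cytosolic elongation factor genes named, 5 were listed and tested, with 0 calls and a median of 0.10. EEF1A2, the form of EF1A typical of muscle, had the highest mean RPKM of these at 3371 and a log2 fold change of 0.10 (SE 0.29), and EEF2, which moves the ribosome along the mRNA, had the largest estimate at 0.52 (SE 0.25, adjusted p = 0.297). The mitochondrial translation factors gave 0 calls among 10, with a median of 0.06. ICT1, a peptidyl-tRNA hydrolase of the mitochondrial ribosome, had the highest mean RPKM there at 106, and MTRF1, a release factor, the largest estimate at 0.29. The ribosomal proteins were also without a call by edgeR, with a median of 0.22 for 65 tested cytosolic genes, 55 of them positive, and of -0.04 for 74 tested mitochondrial genes, 31 of them positive. At an unadjusted p below 0.05, 6 of the 65 cytosolic ribosomal proteins were higher and 1 lower in STH. Of the 74 mitochondrial ribosomal proteins, 3 were higher and 2 lower at that level. Over all genes tested, 9.43% were higher and 9.72% lower. The partners and the elongation and mitochondrial translation factors held 0 such genes. DESeq2 called 1 cytosolic ribosomal protein, beside 7.78% of all genes. Medians near 0 changed sign when 1 library was left out, to -0.10 for the elongation factors without STH replicate 3, -0.021 for the mitochondrial translation factors without QHMM replicate 1 and 0.034 for the mitochondrial ribosomal proteins without QHMM replicate 2.

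**Figure D5:**
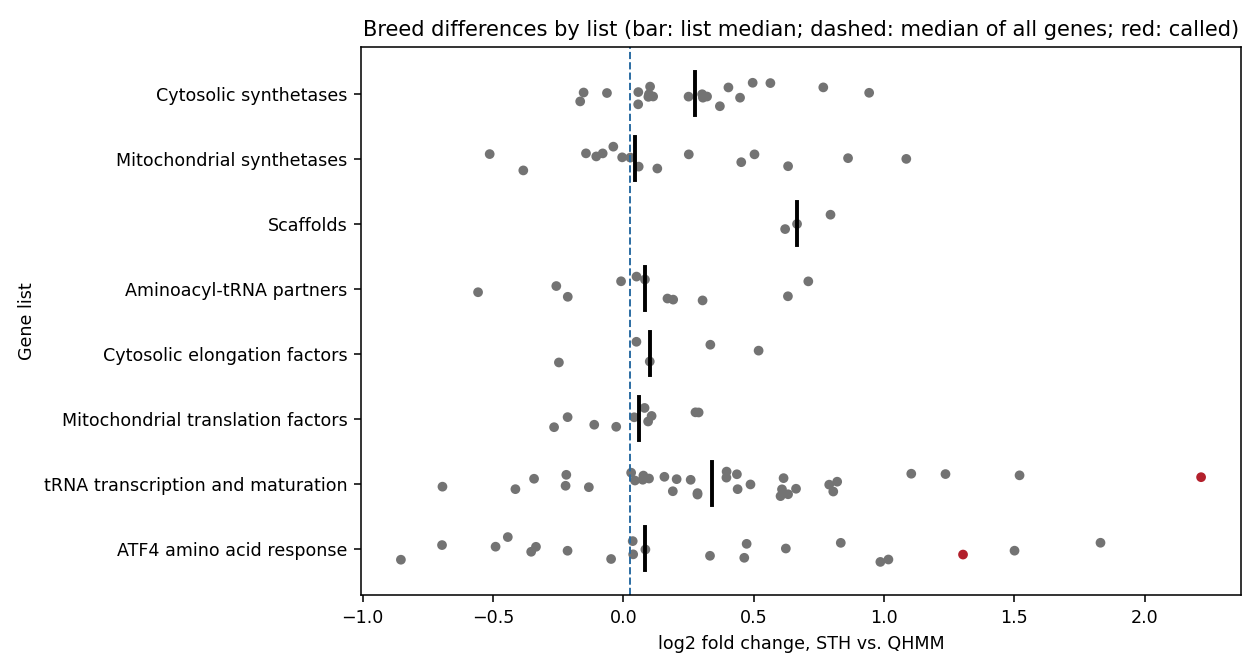
Log2 fold change of STH vs. QHMM (x axis) for each tested gene of the synthetase groups and the pathway lists (y axis), with the list median as a black bar, the median of all genes tested, 0.02, as a dashed line and called genes in red. The red points are RPP38 at 2.22 and EIF4EBP1, and no synthetase or scaffold gene is red.

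Markers of fibre type and of other cells differed between the breeds beside these values. Of 6 tested slow fibre genes, 3 were called lower in STH (OMYHCS, MYL2 and TNNT1), beside 1.83% of all genes. DESeq2 called 5 of the 6, beside 7.78% of all genes. All 6 had negative log2 fold changes, from -1.82 to -0.87 with a median of -1.35. All 6 also lay lower in every STH library in normalized counts, beside 11.7% of all genes. The RPKM summed over the list lay between 15934 and 22707 in QHMM and between 7006 and 10741 in STH. The 4 tested fast fibre genes gave 0 calls by edgeR and DESeq2 and 0 unadjusted p-values below 0.05. All 4 had negative log2 fold changes, from -0.71 to -0.22 with a median of -0.30. TNNT3 was listed at 0 in every library. Of 6 adipocyte genes, 4 were called lower in STH (ADIPOQ, PLIN1, LEP and CIDEC), beside 1.83% of all genes. DESeq2 called 5 of the 6, beside 7.78% of all genes. All 6 had negative log2 fold changes, from -4.21 to -0.04. Their median was -2.25 (-1.49 without QHMM replicate 1). In 5 of the 6 genes the STH libraries all lay below in normalized counts, beside 11.7% of all genes. Their summed RPKM overlapped, between 84.9 and 397 in QHMM and between 50.2 and 160 in STH. The tested fibroblast (4), endothelial (3) and macrophage and leukocyte (4) genes gave 0 calls. All 4 fibroblast genes had negative log2 fold changes, from -1.30 to -0.45 with a median of -0.68. The median was 0.04 for the endothelial genes and 0.007 for the macrophage and leukocyte genes. Of the 11 genes, 1, the fibroblast gene COL1A1, had an unadjusted p below 0.05. COL1A1 was called by DESeq2 and with no filter on low counts. Of the blood genes, ALAS2 was the one listed, at an RPKM of at most 0.403. The part of fibre type and of fat cells in the synthetase values was not tested.

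Some members share their place in the genome with another gene. In the RefSeq annotation of a later sheep assembly, which matched 38 of the 39 symbols, 6 members overlapped a protein-coding gene that is also in the count table and lies on the opposite strand, and whether the counting used the strand is not given in the sources used here. These were AIMP2 with EIF2AK1 (log2 fold change 0.38), EARS2 with UBFD1 (0.25), SARS2 with MRPS12 (-0.44), FARS2 with LYRM4 (0.04), YARS2 with DNM1L (-0.82) and MARS with DDIT3 (-0.34) and ARHGAP9 (-1.17). For SARS2, YARS2 and MARS the partner's estimate had the opposite sign, for AIMP2 and EARS2 the same sign with a smaller size, and for FARS2 the same sign. By mean RPKM, UBFD1 (48.6) lay above EARS2 (3.85), MRPS12 (32.4) above SARS2 (5.95) and DDIT3 (12.7) above MARS (12.1). In turn, EIF2AK1 (10.5) lay below AIMP2 (48.3), LYRM4 (10.5) below FARS2 (16.7), DNM1L (3.45) below YARS2 (3.65) and ARHGAP9 (0.743) below MARS. Whether reads of a partner were counted for a member was not tested.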

How the data were processed

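Longissimus muscle of 3 QHMM and 3 STH sheep was sequenced with 1 library per animal. The authors filtered the reads, mapped them to Oar 3.1, kept those with 1 position and deposited gene-level counts that were not normalized. Per the labels and methods a second deposited table holds RPKM, in which counts are divided by gene length and library total, and no sign of the upper-quartile correction described for it was found. The aligner and the counting program are not given in the sources used here. Totals were 10982191 to 14334544 counts, which limits genes with low counts most.

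Counts were tested in R 4.3.3 with edgeR 4.0.16 (TMM, filterByExpr on breed, quasi-likelihood F test, breed as the only term), with Benjamini-Hochberg adjustment over 12506 genes. Calls required FDR below 0.05 and log2 fold changes beyond 0.585 in either direction. The study used EBSeq, which was not used here. The SE came from the fold change and the F statistic. Normalized counts are counts divided by TMM-scaled totals, times the median total of 13044142. Alternatives were DESeq2 1.42.0, upper-quartile normalization, no filter, at least 10 counts in every library, a replicate block, robust dispersions, no minimum fold, limma-trend (limma 3.58.1) on RPKM with 1 or 0.1 added before the log2, for genes reaching an RPKM of 1 in 3 libraries, and leaving out each library. Data simulated from these same counts were also fitted by edgeR, DESeq2 and limma-trend, and the outcome is not given here. Tables were joined and plotted in Python 3.11.15 with NumPy 2.4.6, pandas 2.3.3 and matplotlib 3.10.9.

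The members and lists were chosen with earlier results of these data known. Values in every library are given for members that were called or did not overlap between breeds, the 3 with the largest log2 fold change and the 3 highest and lowest by RPKM among cytosolic and among mitochondrial enzymes, and any that spread more than 4-fold within a breed, and from each pathway list for called genes and those with the largest fold change and the highest RPKM. The scaffold proteins, AARS2, ASNS, ATF3, VLDLR, QRSL1, PET112, TARSL2, POLR3D, CEBPB and COL1A1 were chosen after their values were seen. Sequences were not used here, and the phenotype and qRT-PCR data were not analysed here. The values of 1 mitochondrial member are not reported here, although it is included in the counts and medians.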

Additional observations from a re-analysis of the deposited data

How the results depend on the processing

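No member was called under any of the settings with all 6 libraries, and when single libraries were left out the number called ranged from 0 to 1, the 1 being AIMP2 without STH replicate 1. Over all genes, 432 calls became 973 with DESeq2, 806 with no filter on low counts and between 131 and 535 when 1 library was left out. The 203 higher and 229 lower calls became 212 and 134 on log2(RPKM + 1) and 203 and 124 on log2(RPKM + 0.1), where the median of all genes moved to 0.12 and 0.14. Relative to these, the cytosolic median was 0.20 higher on either scale, and the test covered 38 members because LARS fell below the RPKM filter. The cytosolic median ranged from 0.16 (without STH replicate 2) to 0.28 over the fits that left out 1 library. The mitochondrial median was 0.16 on log2(RPKM + 1) and 0.20 on log2(RPKM + 0.1), and it ranged from -0.053 (without QHMM replicate 3) to 0.19 (without QHMM replicate 2). The cause was not tested.

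The replicate numbers are shared between breeds, and the labels do not say that they pair the animals. The correlations of the deviations from the breed means were 0.226, -0.038 and -0.13 for the same-numbered pairs. For pairs with different numbers they ran from -0.263 to 0.287. These few values cannot settle whether the numbers mark pairs. With the replicate number as a block, 457 genes and 0 members were called, and the cytosolic and mitochondrial medians were 0.27 and 0.07. POLR3D (adjusted p = 0.0492 by edgeR) and COL1A1 (adjusted p = 0.0414 by edgeR) were also called in that fit, and the ATF4 list had a median of 0.24.

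The sign held in every setting for 28 of the 39 members. Among the members named for size or level, estimates near 0 turned. FARS2 ranged from -0.21 to 0.18, SARS from -0.060 to 0.13 and TARS2 from -0.17 to 0.22 when 1 library was left out. FARS2 was also at -0.004 with at least 10 counts in every library and at -0.0002 with the replicate block, and TARS2 at 0.0791 on log2(RPKM + 0.1) and 0.0813 on log2(RPKM + 1). With 3 animals per breed, the SE of a member's log2 fold change was between 0.20 and 0.37.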
